A study of Arabidopsis thaliana with 6 samples.

Results

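Transcript signals are described here for 3 Arabidopsis genes, the epithiospecifier protein gene ESP (AT1G54040), the beta-glucosidase gene PYK10 (AT3G09260) and the jacalin-related lectin gene JAL33 (AT3G16450). They were chosen by locus, for their part in glucosinolate breakdown and in the PYK10 and lectin system, with their values between the rli mutant and wild type already known. Each was read by 1 probe set of the ATH1 array, and they are 3 of the 13287 loci with a named probe set here. Since this contrast chose them, their differences are given as a description, with no test. RNA came from whole soil-grown Arabidopsis thaliana plants, roots included and rinsed, grown at 4 plants per pot and read on 3 arrays of wild type and 3 of a line labelled as carrying a T-DNA insertion in RLI. RLI, the RNase L inhibitor, is an ATP-binding protein of ribosome recycling, and the title of the series asks about its role in the stability of RNA. The stage label was 3.20 weeks in every wild-type plant and 1.14 weeks in every rli plant, so genotype and labelled stage cannot be told apart. It is unclear whether these label values are ages or growth-stage codes, so they are not read as ages here. The source name Co-1 and the stock code were the same for both groups. The labels name neither the insertion's position nor the number of plants behind each RNA.

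Glucosinolates are sulfur-containing defence compounds of cabbage-family plants. They are stored apart from myrosinases, the beta-glucosidases that cleave them when tissue is crushed. Cleavage alone gives mostly isothiocyanates, and epithiospecifier protein, which has no glucosidase activity of its own, shifts the products towards nitriles and epithionitriles. ESP transcript is known to differ between natural accessions of Arabidopsis, being scarce in Columbia and abundant in Landsberg erecta. The source name Co-1 of these plants is not read as either accession here. PYK10 is the main protein of ER bodies, rod-shaped compartments of root and seedling cells, and it can hydrolyse glucosides such as scopolin and indole glucosinolates. When cells break, PYK10 comes together with jacalin-related lectins, among them JAL33, into large protein complexes.

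Wild-type replicate 3 stood apart from the other arrays before any gene was considered. Its log2 values correlated with those of wild-type replicates 1 and 2 at 0.761 and 0.755, against 0.918 between those arrays and 0.871 to 0.873 among the rli arrays. Replicate 2 of rli correlated with wild-type replicates 1 and 2 at 0.886 and 0.884, above its values with the other rli arrays. Brighter genes described below also read apart on that array. PYK10, ALDH7B4 and UGT88A1 were lowest there, and AT1G72920 was at its highest in wild type. The deviation was counted among dim signals only. Of the 5431 probe sets below an intensity of 10 on wild-type replicates 1 and 2, 41.7% read above 25 on wild-type replicate 3. The same share, for probe sets below 10 on the other arrays of a group, was 0.205% and 0.199% for wild-type replicates 1 and 2 and 0.476% to 5.32% for the rli arrays. JAL33 was among the probe sets with this pattern, so its values are given with and without that array.

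**Figure D1:**
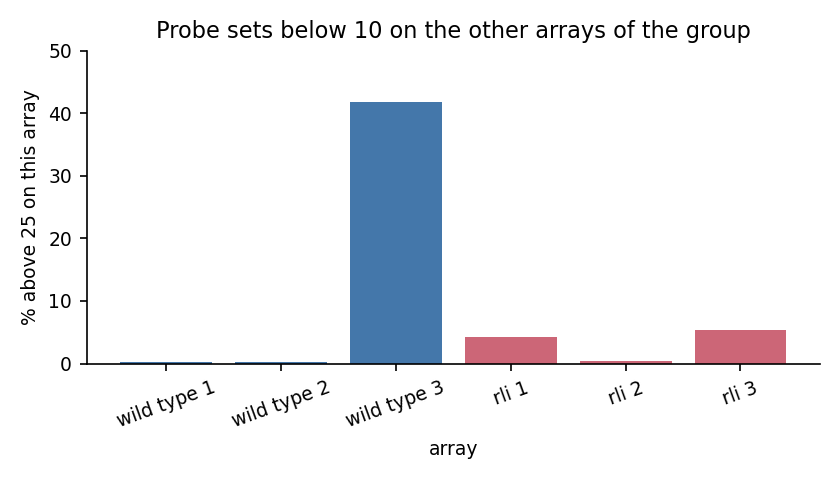
For each array, the bar gives the percentage of probe sets that read above an intensity of 25 among those below 10 on the other arrays of its group. Wild-type replicate 3 stands at 41.7%, and the highest of the other arrays, rli replicate 3, at 5.32%.

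ESP was bright in wild type and dim in rli. Its intensity, in the linear MAS5 units of the deposited values, was 4875 in wild-type replicate 1, 5155 in replicate 2 and 3956 in replicate 3. In rli it was 77.99 in replicate 1, 207.1 in replicate 2 and 129.5 in replicate 3. The groups did not overlap, and the lowest wild-type array was 19.1-fold above the highest rli array. On the log2 scale wild type had a mean of 12.18 ± 0.20 (SD, n = 3) and rli one of 7.00 ± 0.70 (SD, n = 3). The difference, rli minus wild type, was -5.18, a 36.2-fold lower signal. This was the largest fall among the 13648 probe sets tested, those with a mean over all arrays at or above the 40th percentile, and the next largest was -4.62. In whole-plant RNA, fewer cells that express ESP and less ESP RNA per cell cannot be told apart.

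The ESP signal in rli was low but varied more than that of most genes of its level. The rli arrays spanned a 2.66-fold range. Their SD of 0.70 was larger than that of 98.3% of the 3307 probe sets whose rli mean lay within 0.5 log2 units, which had a median SD of 0.21. In wild type, by contrast, ESP spanned a 1.30-fold range, and its SD of 0.20 was below the median of 0.24 for the 85 probe sets of like level. All 6 arrays stayed above the filter level of 24.7. Leaving out rli replicate 1, the array with the lowest ESP signal, gave a difference of -4.82, and leaving out rli replicate 2, the highest, gave -5.53.

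The name of the ESP probe set rests on the rule that chose the genes, because the probe gene table used here does not list that probe set. Of the 20 genes nearest to ESP in gene order, 8 have a named probe set, and their ID numbers lie 13 to 30 below that of the ESP probe set. Such numbers were not compared elsewhere and cannot tell ESP from another gene nearby. The PYK10 and JAL33 probe sets are each listed with a single gene.

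JAL33 ran the other way, near the bottom of the scale in wild type and clearly above it in rli. Its intensity was 4.64 in wild-type replicate 1, 7.13 in replicate 2 and 51.4 in replicate 3. In rli it was 431.9 in replicate 1, 299.1 in replicate 2 and 531.4 in replicate 3. The groups did not overlap, and the lowest rli array was 5.82-fold above wild-type replicate 3, the highest of its group. Wild type had a log2 mean of 3.58 ± 1.85 (SD, n = 3) and rli one of 8.68 ± 0.42 (SD, n = 3), which puts the difference at 5.10, or 34.3-fold. Without wild-type replicate 3 the difference was 6.15, or 71.2-fold, and without wild-type replicate 1 it was 4.42, or 21.4-fold.

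The size of the JAL33 difference depends on how its dim wild-type signal is read. Its mean in wild type was under the filter level of 4.63 on the log2 scale, and 4 of the 6 arrays lay above that level. Raising all intensities below 9.34 to that floor gave a difference of 4.63, or 24.8-fold. Adding 2.45 to every intensity before the logarithm gave 4.74. No detection calls were used here, so a value under the floor is read as a dim signal only. Among all tested probe sets, 6 had a larger rise, between 5.21 and 7.05, and 5 of those 6 were likewise under the filter level in wild type.

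PYK10 was bright on every array and differed little between the groups. Its intensity was 1137 in wild-type replicate 1, 1071 in replicate 2 and 855.3 in replicate 3. In rli it was 1195 in replicate 1, 1076 in replicate 2 and 1254 in replicate 3. The groups overlapped, since rli replicate 2 lay below wild-type replicate 1. Wild type had a log2 mean of 9.99 ± 0.22 (SD, n = 3) and rli one of 10.20 ± 0.11 (SD, n = 3), which puts the difference at 0.21, or 1.16-fold. That difference was smaller than the wild-type SD, and without wild-type replicate 3, the lowest of the 6 arrays, it was 0.087. The median over all 13648 tested probe sets was 0.04, and their 5th and 95th percentiles were -0.78 and 1.11.

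**Figure D2:**
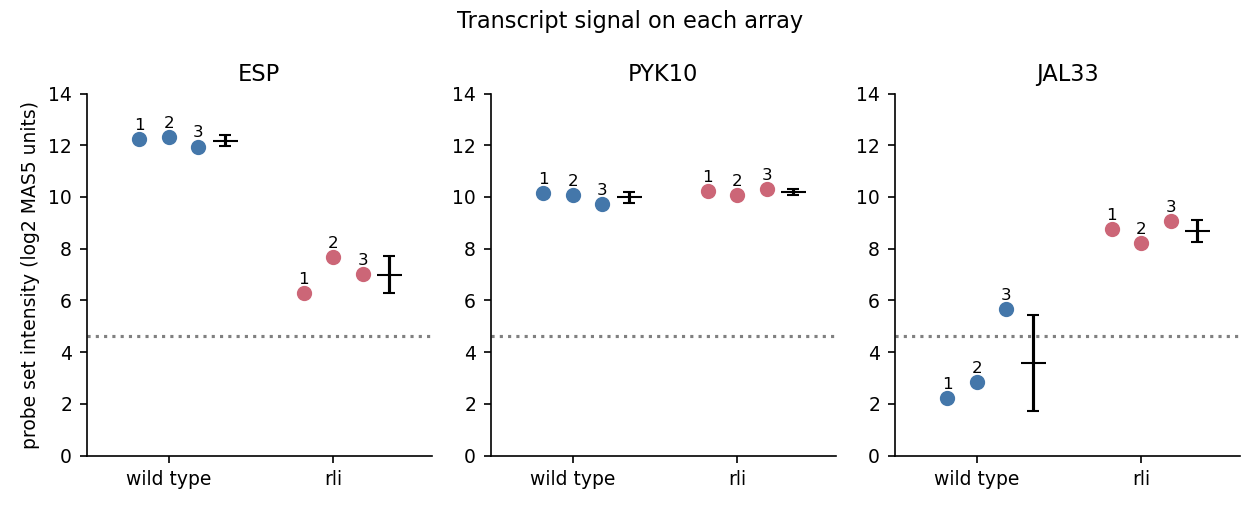
Each panel plots 1 gene, with log2 intensity on the vertical axis and a numbered point for each array, beside the group mean with its SD (n = 3) in black. The dotted line is the filter level of 4.63. ESP lies high in wild type and low in rli, PYK10 overlaps between the groups, and JAL33 lies low in wild type, where replicate 3 is above the other arrays, and high in rli.

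**Figure D3:**
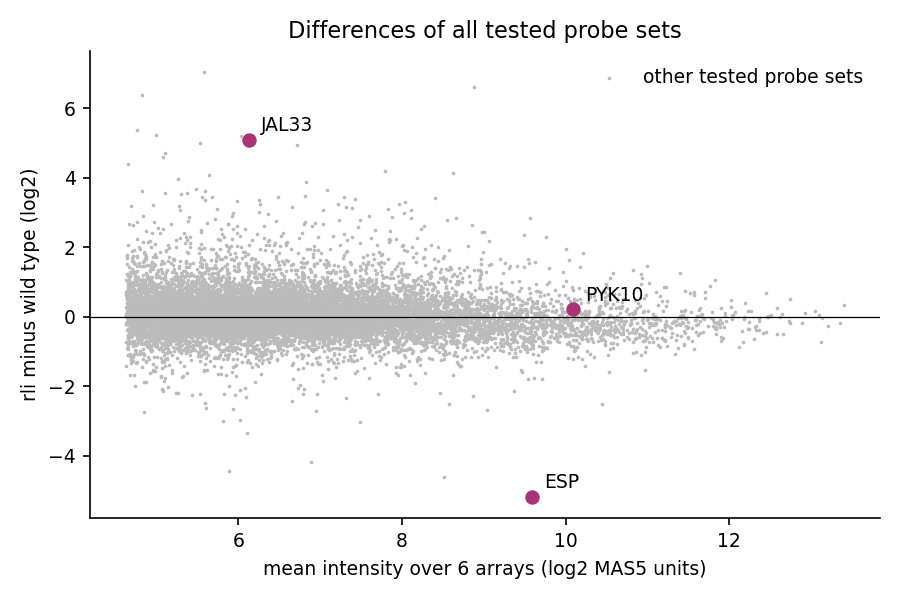
Each grey point is 1 of the 13648 tested probe sets, with its mean log2 intensity over 6 arrays on the horizontal axis and its difference between rli and wild type, in log2 units, on the vertical axis. ESP, at -5.18, is the lowest point, JAL33 lies at 5.10 and PYK10 at 0.21, near the line of no difference.

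All 3 genes passed the filter on low values, JAL33 through its rli arrays. As the background to these values, 28.1% of the tested probe sets had groups that did not overlap, 12.9% with all rli arrays below all wild-type arrays, as for ESP, and 15.2% with all rli arrays above, as for JAL33. Nothing is read from these shares about the genes, because the same contrast chose them. Across the 6 arrays the log2 values of ESP and JAL33 correlated at -0.93, which restates that their groups are separate in opposite directions. Within rli, replicate 2 had the highest ESP signal and the lowest JAL33 and PYK10 signals.

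The genes around PYK10 were read from a list of 19 loci of ER bodies and their lectins, chosen with earlier results of these data known. Of these loci 6 had a named probe set and 5 were tested, with 1 higher in rli and 0 lower (limma, Benjamini-Hochberg adjusted p under 0.05 over all tested probe sets). Of all tested probe sets 6.80% passed, 4.27% higher and 2.53% lower in rli, and the count of 1 in 5 was not tested against this background. The mean in rli was higher for all 5, and the median difference was 0.44, against 0.04 over all tested probe sets. Of the 5, JAL34 at 0.03 lay just under that overall median. The share of all tested probe sets with a higher mean in rli was not counted.

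NAI2, which encodes a protein needed for ER bodies to form, was the member that rose. Its intensity was 40.5, 34.8 and 64.8 in wild-type replicates 1 to 3 and 112.3, 124.4 and 119.0 in rli replicates 1 to 3. The groups did not overlap, and the rli arrays lay close together. The difference was 1.40 ± 0.27 (standard error of the limma fit, adjusted p = 0.013), or 2.63-fold. Its adjusted p was above the threshold without wild-type replicate 1 (limma adjusted p = 0.057) and without any 1 of the rli arrays (highest limma adjusted p = 0.066), at differences between 1.32 and 1.43. NAI1, the transcription factor that controls ER body genes, stood at 0.40 ± 0.48 (limma adjusted p = 0.71). On wild-type replicate 3 it read 87.3, against at most 26.5 on the other wild-type arrays. BGLU19, another beta-glucosidase of the list, was below the filter, with intensities from 1.88 to 64.7.

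A further list held 13 loci named as jacalin-related lectins or nitrile-specifier proteins, with JAL33 left out. It was picked by gene name, so it need not hold the whole lectin family. Of these loci 3 had a named probe set, all 3 were tested and 0 passed, with 1 below an unadjusted p of 0.05 in limma. Over all tested probe sets 6.80% passed and 21.1% were below that unadjusted p. All 3, JAL22, JAL23 and JAL34, also belong to the list of ER bodies and their lectins, so the lists are not separate readings. With 3 arrays per group, missing the threshold does not mean that a gene stayed the same. JAL23 read 196.6, 172.3 and 146.8 in wild type and 325.0, 218.0 and 340.2 in rli, a difference of 0.76 ± 0.23 (limma adjusted p = 0.085). Its groups did not overlap. Its limma adjusted p was 0.0059 with array weights, which count an array less the more it deviates from its group. That setting raised the changed probe sets from 928 to 3181. JAL23 passed in none of the other 15 settings (limma adjusted p = 0.43 after median centring). JAL22 read 245.0, 296.9 and 181.6 in wild type and 351.5, 258.3 and 365.8 in rli, a difference of 0.44 ± 0.24 (limma adjusted p = 0.34), and its groups overlapped. JAL34 (AT3G16460), the gene next to JAL33 in the genome and also a lectin of PYK10 complexes, read 151.5, 166.0 and 137.5 in wild type and 164.2, 161.3 and 139.9 in rli. Its difference was 0.03 ± 0.19 (limma adjusted p = 0.95), beside 5.10 for JAL33. The lectins with a reading therefore ranged from 0.03 to 5.10 in difference, and whether JAL33 differs from the other lectins beyond its choice was not tested.

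Array by array, JAL22 and JAL23 kept the order of PYK10 within rli, with replicate 3 highest and replicate 2 lowest, and all 3 genes were lowest on wild-type replicate 3. Over the 6 arrays the log2 values of PYK10 correlated at 0.91 with JAL22 and 0.86 with JAL23, and at 0.32 with JAL34, 0.31 with NAI2 and -0.32 with NAI1. JAL33 correlated at 0.98 with NAI2 and at -0.12 with JAL34. These are descriptions of 6 arrays that share the split by group and the deviation of wild-type replicate 3.

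PYK10 belongs to the beta-glucosidase family, in which 21 of 47 other loci had a named probe set and 9 were tested. Of these 0 passed and 2 had an unadjusted p below 0.05 in limma, a share near the 21.1% of all tested probe sets, while the mean in rli was higher for 5 and lower for 4, and the median difference was 0.20 (0.04 over all tested probe sets). BGLU15 read 68.3, 48.8 and 89.1 in wild type and 23.9, 34.3 and 38.4 in rli, a difference of -1.08 ± 0.33 (limma adjusted p = 0.087). Across the settings its limma adjusted p ran from 0.024 with array weights to 0.26 without rli replicate 1. BGLU16 stood at -0.62 ± 0.22 (limma adjusted p = 0.14). Its limma adjusted p was 0.014 without wild-type replicate 3, 0.0028 with array weights and 0.45 after median centring. The groups did not overlap for BGLU15 and BGLU16, nor for BGLU40, BGLU42 and BGLU47, which were higher in rli. Over all tested probe sets 28.1% had groups that did not overlap. The difference of 0.21 for PYK10 lay within the range of these 9 members, which ran from -1.08 to 0.92.

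**Figure D4:**
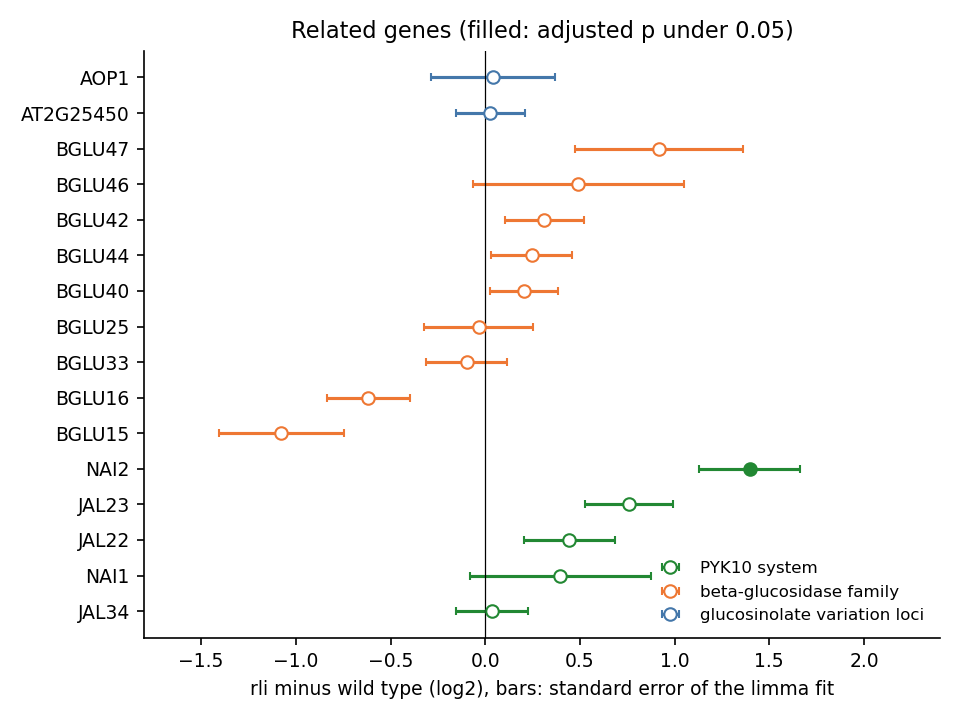
Differences between rli and wild type in log2 units, on the horizontal axis, for the tested genes of the PYK10 system, the beta-glucosidase family and the glucosinolate variation loci, with bars for the standard error of the limma fit. The filled point is NAI2, at 1.40, and the open points have an adjusted p above 0.05.

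For the breakdown step that ESP acts on, the list held 19 loci of myrosinases, nitrile-specifier proteins, their modifiers and nitrilases. A single locus, TGG6, had a named probe set, and it was below the filter, with intensities from 1.89 to 46.7, so the other genes of this step were not analysed here. A second list held 15 loci known to vary between accessions in glucosinolate profile. Of these 3 had a named probe set and 2 were tested, and 0 passed or had an unadjusted p below 0.05 in limma. Over all tested probe sets 6.80% passed and 21.1% had an unadjusted p below 0.05. With 2 genes tested, a count of 0 is not read as a result about these loci. AOP1, from the locus that modifies glucosinolate side chains, stood at 0.04 ± 0.33 (limma adjusted p = 0.96). AT2G25450, a dioxygenase gene that hydroxylates a glucosinolate side chain, stood at 0.03 ± 0.18 (limma adjusted p = 0.96), with intensities from 550.8 to 680.2 over all arrays. The sign of these differences, both near 0, changed between settings. AOP3 was below the filter on average, at 8.36, 0.546 and 50.5 in wild type and 21.7, 14.1 and 26.2 in rli.

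Because PYK10 is mainly a root gene and the samples were whole plants, root markers were read beside it. Of 22 listed markers, 2 had a named probe set, the root-hair expansin genes EXPA7 and EXPA18, and neither passed the filter. EXPA7 ranged from 0.956 to 4.86 in wild type and from 3.16 to 15.7 in rli. EXPA18 ranged from 1.15 to 3.74 in wild type and from 1.34 to 15.6 in rli. These signals are dim on all 6 arrays, and the share of root in each sample was not tested.

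Neighbouring genes were read to show whether the differences extended along the chromosome, with 10 genes on each side of each locus in the gene order of the reference table. Of the 60 neighbours 18 had a named probe set and 10 were tested, of which 2 were higher and 0 lower in rli, with 4 below an unadjusted p of 0.05 in limma. Over all tested probe sets 6.80% passed and 21.1% were below an unadjusted p of 0.05, and the neighbours' counts were not tested against these shares. Beside ESP, AT1G54050, the next gene, stood at 1.47 ± 0.62 (limma adjusted p = 0.21), against -5.18 for ESP itself. AT1G54050 was dim, at 20.4, 9.85 and 63.5 in wild type and 68.6, 41.9 and 93.5 in rli, and its groups overlapped. AT1G54120, 10 positions away, had the lowest value of the 5 tested there, -1.62 ± 0.45 (limma adjusted p = 0.065). Its rli replicates 1 and 2 read 13.2 and 23.2, under the filter level of 24.7. ALDH7B4, an aldehyde dehydrogenase gene 7 positions away, rose by 1.12 ± 0.26 (limma adjusted p = 0.032). Beside JAL33 the next gene was JAL34, given above, and UGT88A1, a glycosyltransferase gene 9 positions away, rose by 1.16 ± 0.24 (limma adjusted p = 0.020). Beside PYK10 the 3 tested neighbours lay between -0.08 and 0.11, the nearest of them, AT3G09250, at 0.11 ± 0.25 (limma adjusted p = 0.86).

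ALDH7B4 read 384.2, 424.4 and 233.0 in wild type and 625.9, 885.5 and 703.3 in rli. UGT88A1 read 288.3, 283.5 and 175.1 in wild type and 536.9, 626.8 and 473.1 in rli. The groups were separate for both genes, and both read lowest on wild-type replicate 3. Without that array the difference was 0.86 for ALDH7B4, against 1.12, and 0.92 for UGT88A1, against 1.16. Both adjusted p-values were above the threshold after median centring (limma adjusted p = 0.29 and 0.25), without the intensity trend and without any 1 of the rli arrays, and that of ALDH7B4 also without wild-type replicate 1 (limma adjusted p = 0.068).

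**Figure D5:**
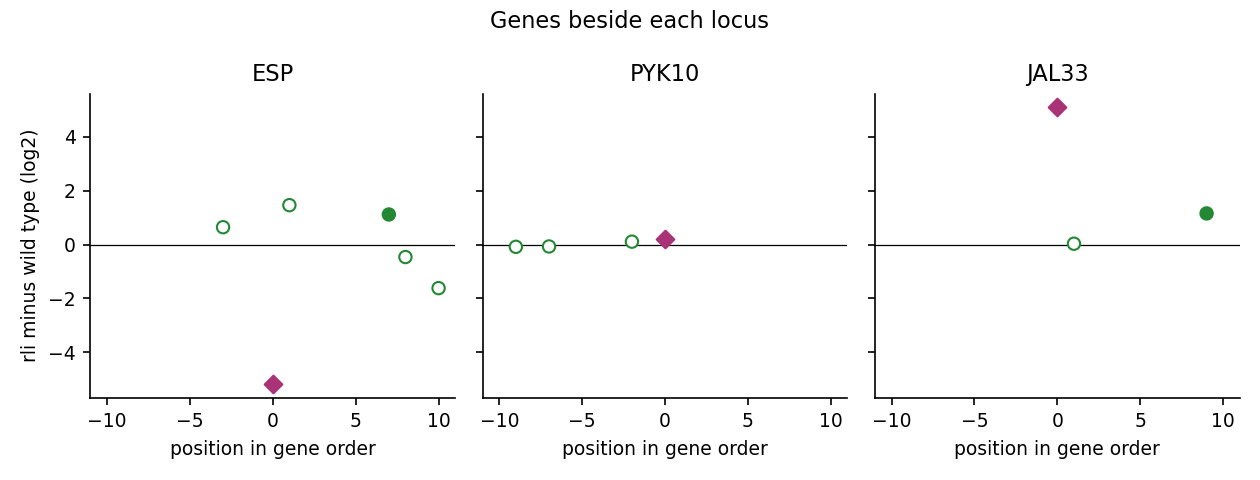
Each panel centres on 1 gene, drawn as a diamond, with its tested neighbours as circles placed by position in gene order on the horizontal axis and the difference between rli and wild type in log2 units on the vertical axis. Filled circles are ALDH7B4 beside ESP and UGT88A1 beside JAL33, which had an adjusted p below 0.05. The neighbours lie between -1.62 and 1.47, while ESP lies at -5.18 and JAL33 at 5.10.

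The genes whose log2 values correlated best with each of the 3 over the 6 arrays were found among the 7292 tested probe sets with 1 named gene. Since this contrast chose ESP and JAL33, genes that differ between the groups rank high for them. Shared regulation was not tested. For ESP these were AT1G02300 (r = 0.997), AT4G39830, TO1, AT3G22210 and AT5G12050 (r = 0.995). AT1G02300 read 257.9, 230.1 and 217.1 in wild type and 35.2, 50.0 and 46.7 in rli, low in rli as ESP was, at a smaller difference of -2.43 ± 0.22. TO1, a thioredoxin gene, stood at -0.48 ± 0.19, so a near-perfect correlation held for a small difference as well. Within wild type TO1 was highest on replicate 3, at 134.2, where ESP and AT1G02300 were lowest. Correlations of at least 0.95 with ESP were found for 123 probe sets.

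For JAL33 they were AT1G59910 (r = 0.991), AT5G63630, AT5G62130, AT1G72920 and AT5G01230 (r = 0.989). AT1G72920 read 62.7, 68.9 and 137.6 in wild type and 264.7, 314.9 and 295.9 in rli, a difference of 1.79 ± 0.29. Like JAL33, each of these 5 genes was higher on wild-type replicate 3 than on the other wild-type arrays. For PYK10 they were AT1G68400 (r = 0.997), AT2G04940, AT1G60770, AT1G73240 and AT2G05920 (r = 0.987). AT2G05920 read 415.7, 319.4 and 203.0 in wild type and 483.3, 352.3 and 488.4 in rli. All 5 had their lowest value on wild-type replicate 3, as PYK10 did, and the groups overlapped in each.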

How the data were processed

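RNA was hybridised to 1 Affymetrix ATH1 array per sample. The authors deposited linear intensities, 1 per probe set. The submitters' processing notes name MAS5 and GCOS, and their versions are not given in the sources used here. Trimmed by 2% of probe sets at each end, the mean was 100.01 on each array, so the values were used as deposited, on the log2 scale, and medians were 35.8 to 53.0. Groups and replicate numbers came from the titles. The labels do not say whether replicates are separate plants, and the p-values reflect the spread of these arrays, possibly technical. Precision is limited by having 3 arrays per group.

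Of 22810 probe sets, 64 controls were left out. The probe gene table listed 14016, 13513 with 1 gene and 503 with several, from which no name was taken, and 8794 are unnamed here. Of those with 1 gene, 13436 matched the reference gene table (TAIR10.1), used only for names and gene order. Probe sets with a mean log2 value at or above the 40th percentile were tested (13648) with limma 3.58.1 in R 4.3.3 (lmFit, eBayes with intensity trend, two-sided, Benjamini-Hochberg, threshold 0.05) on genotype alone. The fit was tested on simulated data. Figures used matplotlib 3.10.9.

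The genes and lists were chosen with earlier results of these data known. Named were the 3 genes, list members past the threshold or else the 2 with the smallest p, neighbours past it or else the nearest, and the 5 most correlated genes of each. With values already seen, NAI1, JAL34, BGLU19, AOP3, AT1G54050 and AT1G54120 were added. The 16 alternatives were other scalings, filters, a pseudocount, a floor, no trend, array weights, a block for the replicate number and leaving out each array.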

Additional observations from a re-analysis of the deposited data

How the results depend on the processing

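The differences of ESP, PYK10 and JAL33 kept their direction and moved by less than the pooled SD of their replicates in all 11 settings that can change a difference. The floor left ESP and PYK10 as they were. ESP ranged from -5.53 to -4.82, PYK10 from 0.087 to 0.36 (after quantile normalization) and JAL33 from 4.42 to 6.21 (with array weights). For JAL33 the pooled SD was wide, at 1.34 log2 units, and its range ran from 21.4-fold to 74.0-fold. Against 928 changed probe sets, median centring gave 332, no intensity trend 593, array weights 3181 and leaving out 1 array between 389, when this was rli replicate 3, and 2085, when it was wild-type replicate 3. Of the related genes, array weights gave 3 calls in the PYK10 system against 1, 1 lectin against 0, 3 beta-glucosidases against 0 and 4 neighbours against 2. With each array left out these counts were 0 to 1 in the PYK10 system, 0 to 1 beta-glucosidases (1 without wild-type replicate 3) and 0 to 3 neighbours, and the neighbours were 0 after median centring and without the trend. With an array left out the fit has fewer samples; otherwise the cause was not tested. The replicate number as a block gave 4 neighbours and changed no count of the other lists by over 1.5 times. Deviations of same-numbered samples correlated at -0.093, 0.33 and 0.32, so not every pair was above 0.1 and the numbers were not taken to pair the samples, though this does not show that they are unpaired. AOP1 turned to -0.055 after quantile normalization and -0.034 after median centring, and lay between -0.18 and 0.23 when 1 array was left out. AT2G25450 turned to -0.048 after median centring and -0.051 with array weights, and lay between -0.070 and 0.082 when 1 array was left out. Dim signals limit JAL33 and AT1G54050 in wild type, AT1G54120 in rli and the root markers on all arrays.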
